A study of Homo sapiens with 12 samples.

Results

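The genes described here are the protein-coding genes of chromosome 13, the chromosome that carries the retinoblastoma gene RB1, in palbociclib-resistant melanoma cells. A gene was a member when GENCODE release 29 lists it as protein-coding on chromosome 13, both deposited count tables hold its identifier, and its mean over the 6 libraries of a cell line was at least 1 CPM (counts of a gene over all counts of its library, times 1000000). RB1 and 11 further genes, CKAP2, DCT, EDNRB, SOX21, COL4A1, COL4A2, SLC7A1, RFC3, LAMP1, ABCC4 and SPRY2, were left out by the same rule. Of 321 protein-coding genes of the chromosome in GENCODE, 277 were in both tables and 233 reached 1 CPM in a line, among them 11 of the 12 left out. This left 222 members, of 13248 protein-coding genes at that level in the genome. A375 had 207 members and CHL1 had 211, with 196 members of both lines, 11 of A375 only and 15 of CHL1 only. The chromosome was selected on its measured change between resistant and parental cells in these libraries, so the resistance changes below describe the members and support nothing. The comparison of the parental lines was not used in the choice. It does share the parental libraries with the resistance changes and with the limit of 1 CPM, and so is not independent of them. Just outside the threshold in A375 were N4BP2L1 (0.877 CPM), OXGR1 (0.898) and NEK3 (0.955), and just inside it POSTN (1.17), DHRS12 (1.17) and TMEM255B (1.21). In CHL1 DHRS12 (0.565 CPM), NEK5 (0.712) and F10 (0.817) were outside, and MYO16 (1.08), ADPRHL1 (1.22) and GGACT (1.22) inside.

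A375 and CHL1 are established human melanoma cell lines. From each, a derivative (labelled A375AR991 and CHL1AR991) was grown in rising concentrations of palbociclib, a drug that blocks the cell cycle kinases CDK4 and CDK6, for 7 months in A375 and 3 months in CHL1, and was then kept in 4 µM palbociclib. All cells, parental and resistant, spent 72 h in medium without palbociclib before RNA was taken, so no group was under the drug at harvest. Each of the 4 groups had 3 libraries of total RNA, made with a kit that does not keep the strand. The labels do not say that the libraries of a group came from separate cultures, or whether a derivative is 1 clone or a mixed population. P-values therefore measure only the spread between these libraries, which may be technical.

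The retinoblastoma protein holds E2F transcription factors in check and is released from them when CDK4 and CDK6 phosphorylate it, which makes it the main substrate in the response to CDK4/6 inhibitors. RB1 lies on the long arm of chromosome 13, as do all the genes described here, because the short arm of this chromosome carries ribosomal RNA repeats. The neighbours of RB1 have no shared task: they include enzymes of mitochondria, a subunit of Mediator, nuclear import receptors and a receptor for lysophosphatidic acid. DNA copy number was not analysed here.

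Total counts ran from 25398920 to 29812686 per library, so that a floor of 3 counts stood for 0.101 to 0.118 CPM. These floors cover counting error only. Levels below are CPM with TMM factors (edgeR's scaling of each library) fitted within a line. The transcription factor gene SOX10 marked both lines as cells of the melanocyte lineage, at means of 416 CPM in parental and 307 in resistant A375 and 1014 and 992 in CHL1. The pigment genes MLANA, PMEL and TYRP1 were at or below 1.81 CPM in every group. Of the markers of other cells, CD68 stood at 61.2 and 64.4 CPM in parental and resistant A375, KRT8 at 36.2 and 34.2, and PTPRC at 9.2 and 8.88 CPM in CHL1. KRT14 went from 23.3 to 4.55 CPM in A375, and its part in the changes of the members was not tested. In bulk RNA, fewer cells that carry a transcript and less of it per cell cannot be told apart.

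Promoter sequences are shown for members beside RB1 and for members with extreme changes in A375, since these show what genes that moved together or apart look like at their starts. They are the 150 bases before the start of the RefSeq gene in build GRCh38.p14, written 5′ to 3′ on the gene's strand, with capitals for a GC box (GGGCGG on either strand) or a CCAAT box (CCAAT on either strand). MED4 (chr13:48095105-48095254, minus strand), a subunit of Mediator, lies before RB1, and LPAR6 (chr13:48413114-48413263, minus strand) and RCBTB2 (chr13:48533081-48533230, minus strand) are the first members after it. TRPC4 (chr13:37869773-37869922, minus strand) and DOCK9 (chr13:99086695-99086844, minus strand) had the lowest changes in A375, and PCDH17 (chr13:57631594-57631743, plus strand) the highest. This ranking is among members of at least 10 CPM in the higher A375 group whose libraries did not overlap. TRPC4 reaches that level only through parental replicate 3.
MED4: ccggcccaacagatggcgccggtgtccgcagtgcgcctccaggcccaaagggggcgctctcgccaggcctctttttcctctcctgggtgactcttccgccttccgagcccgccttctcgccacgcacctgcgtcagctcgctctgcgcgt
LPAR6: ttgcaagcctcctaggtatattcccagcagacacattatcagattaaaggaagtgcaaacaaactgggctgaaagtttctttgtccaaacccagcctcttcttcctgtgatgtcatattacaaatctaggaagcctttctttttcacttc
RCBTB2: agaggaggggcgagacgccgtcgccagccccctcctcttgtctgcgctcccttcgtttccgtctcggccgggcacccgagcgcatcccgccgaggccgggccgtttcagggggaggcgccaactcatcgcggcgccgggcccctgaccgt
TRPC4: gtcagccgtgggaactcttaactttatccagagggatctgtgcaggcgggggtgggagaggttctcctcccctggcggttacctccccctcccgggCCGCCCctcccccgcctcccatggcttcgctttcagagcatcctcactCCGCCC
DOCK9: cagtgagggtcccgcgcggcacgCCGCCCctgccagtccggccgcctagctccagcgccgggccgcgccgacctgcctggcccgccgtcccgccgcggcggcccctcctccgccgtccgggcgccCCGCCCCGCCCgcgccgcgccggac
PCDH17: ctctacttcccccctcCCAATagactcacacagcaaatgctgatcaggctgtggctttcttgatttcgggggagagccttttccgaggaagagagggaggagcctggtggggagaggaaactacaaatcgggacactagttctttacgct

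TRPC4 had GC boxes whose first bases lie 54 and 6 bases before the start, and DOCK9 at 127, 25 and 20 bases before it. PCDH17 had a CCAAT box at 134 bases before its start, and none of the motifs searched was found in the printed bases of MED4, LPAR6 and RCBTB2. GC content of the 300 bases around the start was 43.3% for LPAR6, 52.7% for PCDH17, 63.3% for MED4, 65.3% for TRPC4, 73.0% for RCBTB2 and 82.3% for DOCK9. For LPAR6, DOCK9 and PCDH17 the first bases from the RefSeq start were not found in a GENCODE transcript, so their places and contents hold for the RefSeq start only. Of the members, 194 of 222 had a promoter in the RefSeq table, from 250 bases before to 50 after the start. A GC box stood in 64.4% of them, in 44.6% of all 27305 promoters of that length and in 69.9% of 10531 promoters of genes of other chromosomes at 1 CPM or more. A CCAAT box stood in 35.1%, 35.7% and 36.8%, the M-box core CATGTG, read by MITF, in 6.19%, 11.2% and 6.69%, and a TATA box (TATAAA) in 9.28%, 12% and 5.74% of the same sets. An E2F site in either of the forms TTTGGCGC and TTTCCCGC stood in 4.12%, 2.31% and 3.60%. All motifs were sought on both strands, and a match in these letters is not a bound site. The median GC content was 66.2% in members and 65.3% in expressed genes of other chromosomes, with 27 and 26 CpG pairs. Members with and without a GC box had median changes in A375 of -0.42 and -0.44 on the log2 scale, and members with and without a CCAAT box -0.41 and -0.43. With and without the M-box core they were -0.59 (12 members) and -0.41, and with and without a TATA box -0.48 (18 members) and -0.41. With and without an E2F site they were -0.44 (8 members) and -0.42. In CHL1 they were -0.16 and -0.11 for the M-box core, and these medians are a description, with no test.

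In resistant A375 cells most chromosome 13 genes were lower than in parental A375 cells, and by a similar amount. The median log2 change (resistant minus parental) was -0.42 over the 207 members, with 178 of them below 0, beside -0.00 over 12306 protein-coding genes of other chromosomes. On the linear scale the median member stood at 74.6% of its parental level, and the members together went from 1.30% ± 0.0444 to 0.989% ± 0.00591 of all counts (SD, n = 3). In CHL1 the median change was -0.11 over 211 members, with 157 below 0, beside 0.00 over 12085 genes of other chromosomes. The median CHL1 member stood at 92.5% of its parental level, and the members went from 1.4% ± 0.00996 to 1.34% ± 0.0116 of all counts (SD, n = 3).

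The single libraries showed the same order. Against the parental mean of each gene, the median over A375 members was 0.00, 0.02 and -0.03 for the parental libraries, beside -0.40, -0.43 and -0.44 for the resistant. In CHL1 it was -0.01, 0.01 and -0.01 for the parental libraries, beside -0.07, -0.13 and -0.11 for the resistant. The groups did not overlap in either line, and the median over other chromosomes stayed within 0.01 of 0 in every library.

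**Figure D1:**
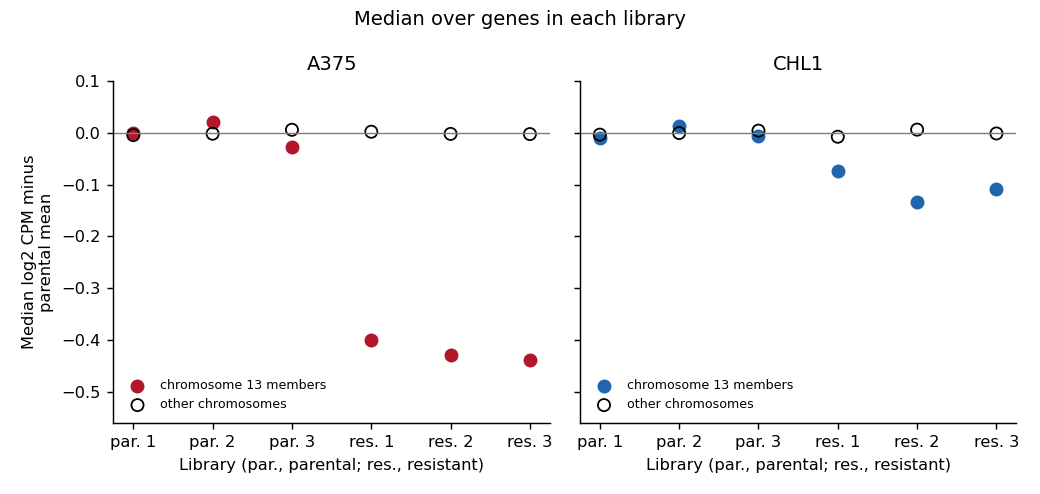
Median over genes of the log2 CPM minus the parental mean of the same line, 1 point per library, for chromosome 13 members (filled) and protein-coding genes of other chromosomes (open). The resistant A375 libraries sit at -0.40 to -0.44 and the resistant CHL1 libraries at -0.07 to -0.13, while other chromosomes stay near 0.

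Counted gene by gene with edgeR at an adjusted p under 0.05 over all genes, 146 of the 207 A375 members (70.5%) were lower, where 14.8% of all tested genes were, and 8 (3.86%) were higher, where 13.4% were. The count of 8 fell to 5 without resistant replicate 1 or 3 and to 4 among members of at least 10 CPM. The share of all genes called under these settings is not given. In 155 members (74.9%) all 3 resistant libraries lay below all 3 parental ones, as in 21.9% of all genes, and in 11 (5.31%) all lay above, as in 20.9%. In CHL1 45 of 211 members (21.3%) were lower, where 12.1% of all genes were, and 13 (6.16%) higher, where 9.11% were. There, 86 members (40.8%) were lower without overlap of the libraries, beside 19.4% of all genes, and 20 (9.48%) higher, beside 17.4%. All members were tested, and because these contrasts chose the chromosome, the counts describe it and nothing is read from them.

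The spread among members was narrow in well-expressed genes. In A375 the interquartile range was 0.28 over the 160 members of at least 10 CPM, close to the 0.28 of such genes of other chromosomes, around a median of -0.43. Over the 47 members of 1 to 10 CPM it was 1.07, around -0.33. Of the 207 members, 139 lay between -0.7 and -0.2, 29 were below -0.7 (10 of them below -1), 10 lay between -0.2 and 0, and 29 above 0. In CHL1 104 of 211 members lay between -0.2 and 0 and 47 between -0.7 and -0.2, while 54 were above 0.

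The lower level in A375 ran along the whole chromosome. All 187 windows of 21 consecutive members had a median below -0.2, from MPHOSPH8, the first member in gene order, to CHAMP1, the last. The lowest window, from DOCK9 to IRS2, had a median of -0.55, and the highest, from SKA3 to RASL11A, -0.27. The 102 members before RB1 and the 105 after it had the same median of -0.42. In CHL1 none of 191 windows was beyond 0.2 in either direction. Its medians ran from -0.19 (XPO4 to RNF6) to -0.02 (NDFIP2 to GGACT), with -0.12 over the 106 members before RB1 and -0.10 over the 105 after it.

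**Figure D2:**
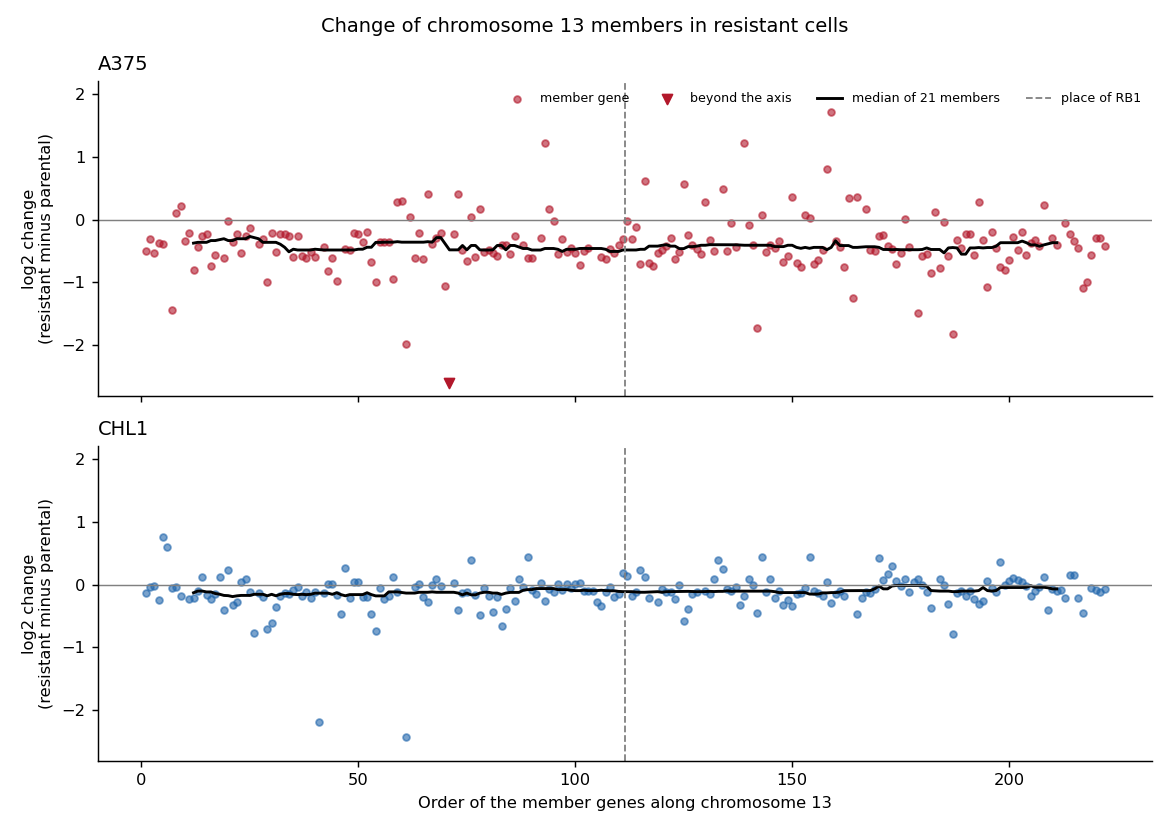
Log2 change (resistant minus parental) of each member in gene order along chromosome 13, A375 above and CHL1 below, with the median of 21 neighbouring members as a line, the place of RB1 dashed, and a triangle for TRPC4, at -4.16 beyond the axis. The A375 line stays between -0.55 and -0.27 over the whole chromosome and the CHL1 line between -0.19 and -0.02.

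Chromosome 13 had the lowest median of the 23 chromosomes in A375, where chromosome 10 was next at -0.31 and chromosome 19 highest at 0.19. In CHL1 it was second lowest, after chromosome 3 at -0.34 and before chromosome 1 at -0.09. Chromosome 13 genes that are not protein-coding, which the rule did not take, had a median change in A375 of -0.12 over 55 genes of at least 1 CPM. It was -0.06 over the 38 pseudogenes among them and -0.25 over the 17 others. In CHL1 44 such genes had a median of -0.01.

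**Figure D3:**
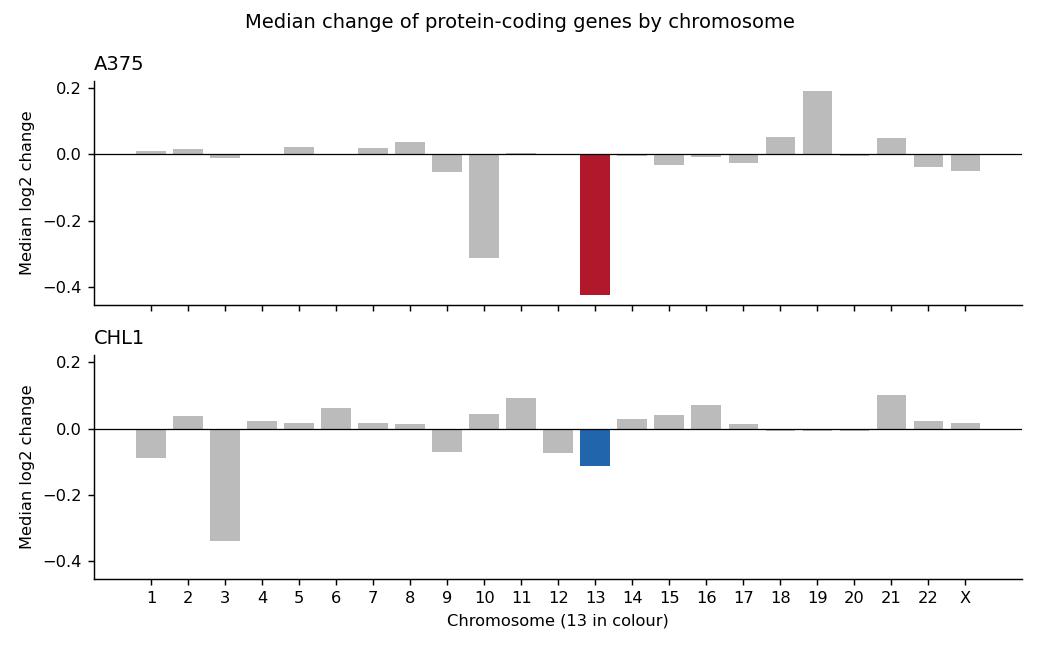
Median log2 change (resistant minus parental) of protein-coding genes of at least 1 CPM by chromosome, A375 above and CHL1 below, with the chromosome 13 members in colour. Chromosome 13 has the lowest bar in A375 (-0.42) and the second lowest in CHL1 (-0.11).

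Among the 10 nearest members on each side of RB1 that are members in both lines, 19 of 20 were below 0 in A375, with a median of -0.48. Of all A375 members 86.0% were below 0. The 10 members before RB1, from TPT1 to ITM2B, ranged from -0.73 to -0.31 with a median of -0.52. All 10 were lower without overlap of the libraries, as were 74.9% of all A375 members and 21.9% of all tested genes. The 10 after it, from LPAR6 to SPRYD7, ranged from -0.70 to 0.62 with a median of -0.37, and 7 were lower without overlap. The chromosome was chosen for its change, so these counts are not read as particular to the neighbours of RB1. In CHL1 the 20 genes had a median of -0.11, and 10 were lower and 3 higher without overlap, beside 19.4% and 17.4% of all tested genes, so that the count of higher genes lies near that of all genes. Of all CHL1 members 40.8% were lower and 9.48% higher without overlap.

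ITM2B, which encodes an integral membrane protein cleaved by furin, is the last member before RB1. It had 129, 122 and 115 CPM in the parental and 99.2, 98.3 and 98.1 in the resistant A375 libraries, a log2 change of -0.31 ± 0.06 (SE). In CHL1 it had 178, 176 and 168 CPM in the parental and 198, 206 and 189.9 in the resistant libraries, a change of 0.19 ± 0.05. The libraries did not overlap in either line, and the gene was lower in resistant A375 and higher in resistant CHL1, a difference of -0.50 ± 0.07 between the lines. MED4, next to it, had 42.2, 44.9 and 37.3 CPM in parental and 32.4, 30.8 and 30.4 in resistant A375 (-0.41 ± 0.08), and 41.2, 43 and 39.5 against 38.9, 36.8 and 35.8 in CHL1 (-0.15 ± 0.06). MED4 was lower without overlap in both lines.

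Further before RB1 stood genes of metabolism and growth. The abundant TPT1, the translationally controlled tumour protein, had 1642, 1552 and 1461 CPM in parental and 1076, 1101 and 1056 in resistant A375 (-0.53 ± 0.05), while in CHL1 the change was 0.01 ± 0.05 and the libraries overlapped. Copies of TPT1 elsewhere in the genome and the overlapping antisense gene TPT1-AS1 make its count uncertain. SUCLA2, a subunit of succinyl-CoA ligase in the citric acid cycle, had 52.7, 56.8 and 53.5 CPM in parental and 37.2, 40.1 and 40.1 in resistant A375 (-0.47 ± 0.06), and -0.04 ± 0.06 in CHL1. The hydrolase ESD had 109.8, 113 and 113 against 67.9, 76.3 and 73.1 CPM in A375 (-0.63 ± 0.06), and -0.12 ± 0.07 in CHL1. SLC25A30, a mitochondrial carrier that overlaps TPT1-AS1 on the opposite strand, had the lowest change of these 20 genes in A375, 31.9, 35 and 29.3 against 17.7, 20.3 and 20.1 CPM (-0.73 ± 0.09), beside 0.02 ± 0.07 in CHL1. Without strand, the count of SUCLA2 can include reads of the opposite strand. Also before RB1 in A375 were ZC3H13 of the RNA methylation complex (-0.46 ± 0.08), the Golgi tether COG3 (-0.51 ± 0.07) and LRCH1 (-0.59 ± 0.11).

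After RB1 the changes were less even. LPAR6, a receptor for lysophosphatidic acid that lies within RB1 on the opposite strand, had 7.64, 5.74 and 4.73 CPM in parental and 6.85, 4.62 and 6.35 in resistant A375, a change of -0.02 ± 0.21 with overlapping libraries. RCBTB2, which also overlaps RB1 on the opposite strand, had 5.32, 5.93 and 6.07 against 4.47, 4.79 and 4.71 CPM (-0.31 ± 0.12), without overlap. Without strand, reads of both genes cannot be told apart from those of RB1 where they overlap. FNDC3A had 70.3, 64.8 and 68.5 CPM in parental and 67, 58.5 and 61.8 in resistant A375 (-0.12 ± 0.07), with overlap, beside -0.11 ± 0.06 in CHL1. CDADC1, a gene with a cytidine deaminase domain, had 6.74, 6.55 and 6.83 against 3.63, 4.56 and 4.15 CPM in A375 (-0.70 ± 0.13) and 5.7, 6.09 and 6.18 against 6.66, 6.93 and 7.46 in CHL1 (0.23 ± 0.10). Its libraries did not overlap in either line, lower in resistant A375 and higher in resistant CHL1, where the change did not pass the test.

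CAB39L, a relative of the scaffold that activates the kinase LKB1, was the 1 gene of these 20 above 0 in A375. It had 3.03, 2.74 and 2.86 CPM in parental and 3.88, 4.96 and 4.41 in resistant A375 (0.62 ± 0.15), without overlap, and 0.13 ± 0.11 in CHL1. Its neighbour SETDB2, a histone methyltransferase, had 12.5, 10.9 and 12.3 against 6.36, 7.29 and 8.63 CPM in A375 (-0.68 ± 0.13). RCBTB1 (-0.54 ± 0.08 and -0.27 ± 0.05 in A375 and CHL1), EBPL (-0.48 ± 0.07 and -0.07 ± 0.08), the nuclear import receptor KPNA3 (-0.42 ± 0.06 and -0.12 ± 0.05) and SPRYD7 (-0.30 ± 0.08 and -0.11 ± 0.07) followed. Each of these last 4 was lower in all 3 resistant A375 libraries than in all 3 parental ones.

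**Figure D4:**
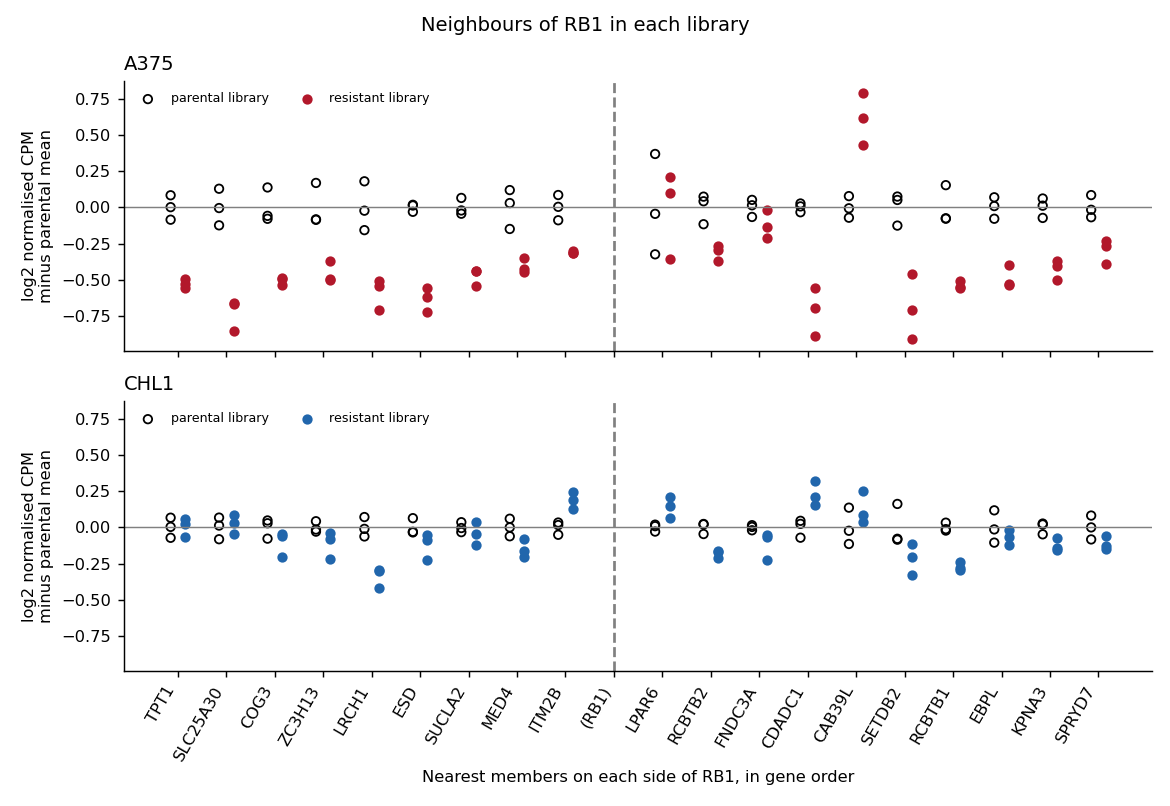
Log2 normalised CPM of each library minus the parental mean for 19 of the 20 nearest members beside RB1, open points for parental and filled points for resistant libraries, A375 above and CHL1 below. In A375 the resistant points lie below the parental ones in 16 of 19 genes and above them in CAB39L.

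The members with the largest changes departed from this common level. By the naming rule (10 CPM or more in the higher group and libraries that do not overlap) the lowest in A375 was TRPC4, a calcium-permeable channel, with 6.85, 5.86 and 25.7 CPM in parental and 0.594, 0.965 and 0.561 in resistant libraries, -4.16 ± 0.65 on the log2 scale. Its value rests in part on parental replicate 3: without that library it was -3.15. The other parental libraries of TRPC4 were below 10 CPM, so its naming by the rule rests on that library too. DOCK9, an activator of the small GTPase CDC42, had 26.6, 22 and 25.5 against 7.61, 9.18 and 9.68 CPM in A375 (-1.48 ± 0.12) and 32.4, 35.3 and 33.8 against 36.8, 34.2 and 37.2 in CHL1 (0.09 ± 0.06), where the libraries overlapped. The neuronal membrane protein SLITRK6 had 125, 127 and 79.3 against 42.6, 42.5 and 54.6 CPM in A375 (-1.25 ± 0.18) and at most 0.153 CPM in any CHL1 library. GAS6, the ligand of the receptor AXL, overlaps its antisense gene GAS6-AS1 and had 9.22, 9.59 and 11.6 against 4.44, 4.69 and 6.17 CPM (-0.99 ± 0.16). STARD13, a brake on the small GTPase RhoA, had 44.4, 59.5 and 34.7 against 21.7, 28.2 and 22.1 CPM (-0.94 ± 0.18) and 0.12 ± 0.06 in CHL1.

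DCLK1, a microtubule-binding kinase, had the lowest change in CHL1 and was low in both resistant lines. It had 12.9, 13.5 and 12.5 CPM in parental and 2.08, 1.73 and 3.41 in resistant CHL1 (-2.42 ± 0.17), and 6.54, 9.59 and 10.04 against 1.89, 2.69 and 2.02 in A375 (-1.98 ± 0.21). Neither line had overlapping libraries. Among members of at least 10 CPM in the higher group the next in CHL1 were AMER2, which binds the tumour suppressor APC (120.3, 137 and 149 against 63.5, 76.9 and 98.8 CPM, -0.76 ± 0.13), and the lipid flippase ATP8A2 (-0.71 ± 0.10, and -1.0 ± 0.28 in A375). KBTBD6, an adaptor of a CUL3 ubiquitin ligase, had 69.9, 70.1 and 69.6 against 44.7, 41 and 46.9 CPM in CHL1 (-0.66 ± 0.06) and -0.41 ± 0.08 in A375. SHISA2 had 308, 338 and 357 against 204, 232 and 225 CPM in CHL1 (-0.60 ± 0.06) and -0.21 ± 0.21 with overlap in A375.

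Some members were higher in resistant cells. In A375 the rule named 5, led by the cell adhesion molecule PCDH17, with 9.06, 7.75 and 10.9 CPM in parental and 23.3, 20.4 and 20.6 in resistant libraries (1.21 ± 0.13), beside -0.18 ± 0.14 with overlap in CHL1. TBC1D4, which restrains glucose transporter traffic, had 80.6, 95.9 and 70.8 against 106, 106 and 105 CPM in A375 (0.36 ± 0.10) and 16.9, 17.8 and 18.7 against 14.3, 13.6 and 14.3 in CHL1 (-0.34 ± 0.07). Its libraries did not overlap in either line, and the direction differed. The same held for EFNB2, the ephrin-B2 ligand, with 50.1, 58.9 and 50.4 against 65.9, 63.7 and 64.6 CPM in A375 (0.29 ± 0.07) and 91.2, 91 and 92.3 against 70.8, 73 and 78.4 in CHL1 (-0.30 ± 0.05). SLITRK1 had 0.33 ± 0.08 and the neuronal protein NBEA, which overlaps MAB21L1 on the opposite strand, 0.27 ± 0.10 in A375. POU4F1, a transcription factor of sensory neurons, was named after its values were seen, as the A375 member with the highest change, from 1.73, 1.77 and 1.56 to 5.8, 6.09 and 4.75 CPM (1.71 ± 0.16). In CHL1 it went the other way, with 12.4, 11.5 and 13 against 9.64, 10.1 and 10.3 CPM (-0.29 ± 0.08).

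In CHL1 the highest change was that of GJA3, which encodes a connexin of gap junctions, with 11.4, 9.8 and 12.7 CPM in parental and 19.4, 20 and 17.9 in resistant libraries (0.76 ± 0.10). In A375 the same gene had 9.93, 10.3 and 9.12 against 7.33, 7.62 and 7.47 CPM (-0.39 ± 0.10), so that the libraries did not overlap in either line and the direction differed. DZIP1, a protein of the cilium, likewise had 26.9, 27.7 and 28.4 against 36.7, 35.9 and 38.5 CPM in CHL1 (0.42 ± 0.06) and 108, 97.8 and 104 against 87.1, 83.9 and 88.4 in A375 (-0.26 ± 0.06). LHFPL6 (0.39 ± 0.07), the kinase NEK3 (0.38 ± 0.08) and the splicing regulator MBNL2 (0.30 ± 0.05) followed in CHL1 among members of at least 10 CPM in the higher group. NEK3 is not a member in A375, where its libraries held 0.315, 0.462 and 0.458 CPM in parental and 1.54, 1.83 and 1.12 in resistant cells.

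Sorted by what the genes do, a lower median in A375 was found in each of 7 function lists, which are short and were drawn up with earlier results of these data known. The chromosome was chosen for its change, so a lower median in each list could be foreseen and is no result about function. Of all members 70.5% were lower and 3.86% higher in A375, and 21.3% and 6.16% in CHL1. Beside 14.8% lower and 13.4% higher among all tested genes in A375, 11 of 13 members of the list on cell cycle and division were lower and 0 higher. Its best-expressed members included TFDP1, the dimer partner of E2F (382, 418 and 412 against 312, 285 and 291 CPM, -0.45 ± 0.06), CDC16 of the anaphase-promoting complex (-0.29 ± 0.05) and MZT1 of the gamma-tubulin ring (-0.52 ± 0.06). Also among them was PROSER1 (-0.48 ± 0.06), whose role in division was not checked. TFDP1 was lower without overlap in CHL1 too, with 219, 225 and 224 against 189, 195 and 194 CPM (-0.21 ± 0.04). In CHL1, where 12.1% of all tested genes were lower and 9.11% higher, 3 of 14 members of this list were lower and 1 higher.

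Of the list on DNA repair, chromatin and transcription, 20 of 23 members were lower in A375 (14.8% of all genes) and 4 of 22 in CHL1 (12.1% of all genes), and 0 were higher in either line (13.4% and 9.11%). HMGB1 (-0.24 ± 0.06 in A375), a chromatin protein with many copies in the genome, TSC22D1 (-0.55 ± 0.07), the transcription factor KLF5 (-0.68 ± 0.09) and the zinc finger protein ZMYM2 (-0.38 ± 0.08) were its most abundant members. KLF5 had 108, 118 and 106 against 64.5, 79.9 and 63 CPM in A375 and 99.9, 104 and 112 against 76.7, 85.6 and 89.1 in CHL1 (-0.33 ± 0.06), lower without overlap in both.

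Of the list on ubiquitin and the proteasome, 14 of 17 members were lower and 0 higher in A375, beside 14.8% and 13.4% of all genes. In CHL1 3 were lower and 1 higher, near the 12.1% and 9.11% of all genes. The scaffold CUL4A, which overlaps PCID2 on the opposite strand, had 231, 232 and 230.1 against 181, 181 and 162 CPM in A375 (-0.40 ± 0.06) and -0.10 ± 0.04 in CHL1. POMP, which assembles the proteasome, had -0.61 ± 0.07 in A375 and 0.01 ± 0.05 in CHL1. UBL3 had -0.47 ± 0.07 in A375 and 0.26 ± 0.06 in CHL1, and UFM1 had -0.22 ± 0.09 and 0.03 ± 0.05.

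Of the mitochondrial and metabolic list, 15 of 16 members were lower in A375, where 14.8% of all genes were. In CHL1 1 of 16 was lower, a smaller share than the 12.1% of all genes, and 0 were higher in either line (13.4% and 9.11% of all genes). Among them were ESD and SUCLA2, given above, the calcium uptake regulator MICU2 (-0.56 ± 0.07 and -0.15 ± 0.05 in A375 and CHL1) and CARS2 (-0.48 ± 0.06 and 0.08 ± 0.06), the mitochondrial cysteinyl-tRNA synthetase, which overlaps ING1 on the opposite strand. Of 20 genes of RNA processing, translation and nuclear transport, 19 were lower in A375 and 5 in CHL1, beside 14.8% and 12.1% of all genes. The nuclear import receptor IPO5 had 496, 497 and 499 CPM in parental and 365, 339 and 329.8 in resistant A375 (-0.53 ± 0.05), and 486, 490.0 and 469.9 against 482, 473 and 468 in CHL1 (-0.02 ± 0.04). IPO5 was lower without overlap in A375 and overlapped in CHL1. GTF3A (-0.58 ± 0.07 and -0.18 ± 0.05), which starts transcription of 5S RNA and overlaps MTIF3 on the opposite strand, and the nuclear pore protein NUP58 (-0.31 ± 0.05 and -0.19 ± 0.04) belong to the same list.

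Of the endomembrane list, 16 of 19 members were lower and 0 higher in A375, beside 14.8% and 13.4% of all genes. In CHL1 2 were lower and 1 higher, shares below the 12.1% and 9.11% of all genes. TM9SF2 had -0.55 ± 0.05 in A375 and -0.11 ± 0.04 in CHL1, SPART -0.61 ± 0.05 and -0.04 ± 0.05, and ATP11A -0.42 ± 0.08 and -0.04 ± 0.05. FARP1, which overlaps STK24 on the opposite strand, departed from them in A375, with 81.9, 60.7 and 56.1 CPM in parental and 77.3, 54.8 and 68.3 in resistant libraries (0.01 ± 0.16). The list of receptors, ligands and signalling genes was the most mixed, with 14 of 23 members lower and 3 higher in A375 and 5 of 24 lower and 4 higher in CHL1. All tested genes had 14.8% lower and 13.4% higher in A375, so that the share of higher members lies near that of all genes, and 12.1% and 9.11% in CHL1. The changes in this list ran from -1.98 (DCLK1) to 1.21 (PCDH17) in A375. IRS2, the adaptor of the insulin receptor, had 199, 225 and 153 CPM in parental and 114, 111 and 107 in resistant A375 (-0.80 ± 0.12) and 488, 514 and 549 against 484, 556 and 509.9 in CHL1 (-0.00 ± 0.06). IRS2 was lower without overlap in A375, and its libraries overlapped in CHL1. The kinase STK24 had -0.43 ± 0.05 and -0.11 ± 0.04, and TNFRSF19 had -0.03 ± 0.34 and 0.23 ± 0.04.

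Over the 196 members of both lines the A375 change minus the CHL1 change had a median of -0.33, and 166 were below 0. By the interaction term of edgeR over all 12 libraries 99 of the 196 members (50.5%) were lower in A375 and 9 (4.59%) higher, where 11.9% and 11.7% of all tested genes were. Without A375 resistant replicate 3 the counts were 74 and 9, and the share of all genes under that setting is not given. This difference is built from the contrasts that chose the chromosome and is given as a description. In 130 of the 196 both changes were below 0, in 41 the A375 change alone, in 17 the CHL1 change alone, and in 8 neither. Across these genes the changes of the 2 lines had a Spearman correlation of 0.098, and 0.101 over the 147 genes of at least 10 CPM in both. This correlation is across genes of 1 chromosome, which are not independent replicates.

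The parental lines were compared with each other without use of the resistant libraries, on levels scaled by TMM over the 6 parental libraries. By edgeR 84 of the 222 members (37.8%) were lower in parental A375 than in parental CHL1 and 83 (37.4%) higher, close to the 37.7% and 38.4% of all 18208 tested genes. The median log2 difference (A375 minus CHL1) was 0.01 with an interquartile range of 1.21 over the members, and 0.02 over all genes. Scaling by library totals in place of TMM moved the median of all genes from 0.02 to 0.13 and that of the members from 0.01 to 0.11. A share of called members so near that of all genes is not a result about the chromosome.

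Several members were present in 1 line and near the counting floor in the other. They are members only through the line where they are high, since 1 CPM in 1 line was enough. Their absence from the other line is therefore no result about the chromosome, and they also enter the counts above. FAM216B had 176 ± 2.3 CPM in CHL1 and 0.221 ± 0.192 in A375 (SD, n = 3). LCP1, the actin bundler L-plastin, had 108 ± 7.97 CPM in CHL1 and 0.344 ± 0.20 in A375 (SD, n = 3). AMER2 had 139.7 ± 14.7 CPM in CHL1 and 0.309 ± 0.153 in A375 (SD, n = 3). The growth factor FGF9 (15.1 ± 0.433 CPM) and the peptide transporter SLC15A1 (12.4 ± 1.17) were in CHL1 only at such levels, with 0.0245 ± 0.0212 and 0.236 ± 0.0609 in A375 (SD, n = 3). In the other direction SLITRK6 had 106 ± 26 CPM in A375 and 0.0647 ± 0.0832 in CHL1, and SOHLH2, a germ cell transcription factor, 20.1 ± 1.62 and 0.0119 ± 0.0205 (SD, n = 3). TRPC4 (12.3 ± 10.7 against 0.0369 ± 0.0357) and SLITRK1 (12.1 ± 0.348 against 0.124 ± 0.0211) stood likewise (SD, n = 3). The mean of TRPC4 rests largely on A375 parental replicate 3. TSC22D1, a transcription regulator, was expressed in both lines, with 186 ± 8.51 CPM in A375 and 26.4 ± 0.311 in CHL1 (SD, n = 3), a log2 difference of 2.82 ± 0.06 with an adjusted p of 6.78e-11.

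Along the chromosome the parental difference changed sign. The lowest window of 21 members, from AMER2 to MTUS2, had a median of -0.63 and the highest, from ZIC2 to ING1, 0.50. Runs of at least 3 consecutive members that passed the test with a difference of at least 1 in the same direction were then sought, a search added after the values were seen. There were 2, both higher in CHL1: SLC46A3 to UBL3 with 3 members (median -2.75), and ATP11A to GRTP1 with 6 (median -1.76). Consecutive means next to each other among members, so genes left out by the rule or under 1 CPM in both lines are skipped. Among members the second run lay between TUBGCP3 before it, at 0.36 ± 0.06, and the weakly expressed ADPRHL1 after it, at 0.69 ± 0.19. Each edge rests on 1 gene: further out, ARHGEF7 before TUBGCP3 stood at -0.46, and DCUN1D2 and TMCO3 after ADPRHL1 at 0.23 and -0.64.

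Within this run CUL4A, the scaffold of a ubiquitin ligase that acts in DNA repair and replication, had 222, 223 and 220.4 CPM in the parental A375 and 1038, 1034 and 1033 in the parental CHL1 libraries, a log2 difference of -2.22 ± 0.05. PCID2, which shares reads with CUL4A where they overlap if strand was not used, had 85.9, 91.6 and 90.1 against 209.8, 227 and 204 CPM (-1.26 ± 0.06). ATP11A, a lipid flippase, had 77, 65.4 and 67.6 against 171, 167 and 178 (-1.30 ± 0.07). No library of 1 line reached the level of the other in these 3 genes. MCF2L had a difference of -1.53 ± 0.14, and the weakly expressed PROZ and GRTP1 -1.98 ± 0.24 and -2.15 ± 0.25. In resistant CHL1 CUL4A stood at 953, 941 and 919 CPM, so that its high level was kept, with a change of -0.10 ± 0.04. These resistant levels are scaled within CHL1 and are not on the scale of the parental levels just given. TFDP1, a few genes further, was higher in parental A375, at 388 ± 17.8 CPM against 229.8 ± 2.29 in CHL1 (SD, n = 3), a difference of 0.75 ± 0.05 with an adjusted p of 3.15e-07.

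**Figure D5:**
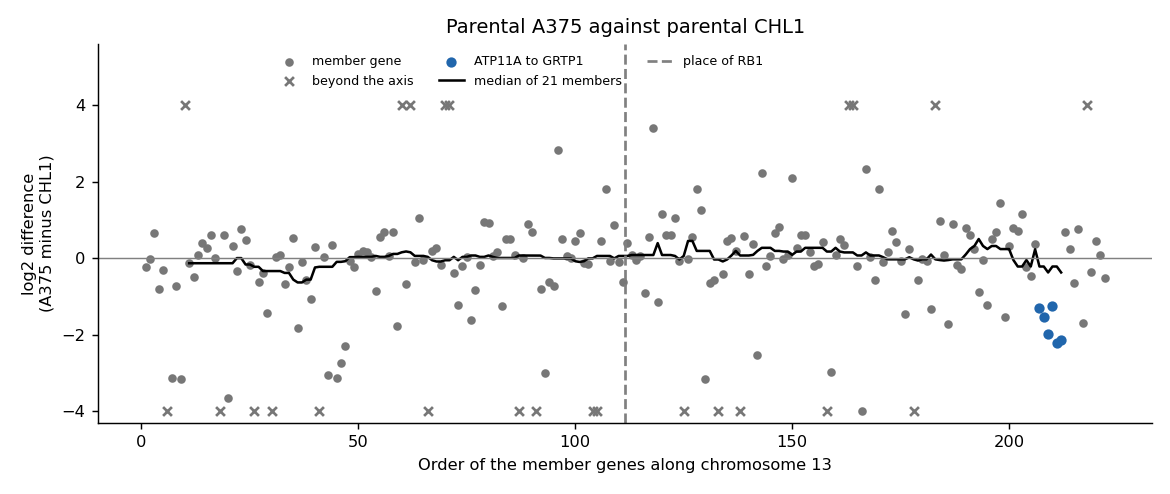
Log2 difference between parental A375 and parental CHL1 of each member in gene order along chromosome 13, with the median of 21 neighbouring members as a line, the place of RB1 dashed and crosses at 4 and -4 for members beyond the axis. The 6 members from ATP11A to GRTP1, in blue, lie between -2.22 and -1.26 between TUBGCP3 at 0.36 and ADPRHL1 at 0.69.

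Of the 20 neighbours of RB1, 3 were lower and 9 higher in parental A375, with a median of 0.24. Among all tested genes 37.7% were lower and 38.4% higher, and the count of higher neighbours lies near that share. ESD had 108 ± 1.74 CPM in A375 and 30.6 ± 1.23 in CHL1 (SD, n = 3), a difference of 1.82 ± 0.06 with an adjusted p of 1.1e-09, and EBPL 1.16 ± 0.08. RCBTB1 went the other way, with 26.2 ± 2.52 CPM in A375 and 57.3 ± 1.42 in CHL1 (SD, n = 3), -1.13 ± 0.08 with an adjusted p of 3.28e-07, as did CAB39L (-0.91 ± 0.14) and ITM2B (-0.61 ± 0.06). MED4 (-0.10 ± 0.08), RCBTB2 (0.08 ± 0.12) and FNDC3A (-0.05 ± 0.06) did not pass the test.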

How the data were processed

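RNA was sequenced from 12 libraries, 3 in each of 4 groups. The authors deposited 1 table of raw counts per gene and library for each cell line. Per the submitters' processing notes the tools named are CASAVA 1.8.2 and cutadapt 1.7, also TopHat2 and HTSeq 0.5, with limma listed as well. Not given in the sources used here are the genome build, the annotation and the strand setting of the counting. Every count column carries the name of a sample, so 0 columns were left without one. Gene types and gene order came from GENCODE release 29 by Ensembl identifier, and promoters from RefSeq, build GRCh38.p14.

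Counts were tested with the quasi-likelihood test of edgeR 4.0.16 in R 4.3.3, two-sided, with TMM factors, filterByExpr at a minimum count of 10 and Benjamini-Hochberg adjustment over all genes at 0.05. Resistant and parental libraries were compared within each line, the lines by an interaction over 12 libraries, and parental A375 with parental CHL1 in their own fit. Standard errors of log2 changes come from the same fits. Log2 levels per library used a prior count of 2. The fits were tested on simulated counts. Alternatives were DESeq2 1.42.0, library totals, no filter, the replicate number as a block, members of at least 10 CPM, and leaving out each library. Medians and windows were computed with pandas 2.3.3 and numpy 2.4.6 under Python 3.11.15, and drawn with matplotlib 3.10.9.

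Members, lists and tests were chosen with earlier results of these data known. Named genes are the 10 nearest members on each side of RB1, the 5 highest and 5 lowest changes per line among members of at least 10 CPM in the higher group without overlap of the libraries, up to 4 members of highest mean CPM per function list, the members at the ends of window runs, and the 5 largest parental differences per direction at 10 CPM. Without strand, reads of overlapping genes cannot be told apart. Not every gene that the rule names is reported here.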

Additional observations from a re-analysis of the deposited data

Results flagged for a closer look

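For 40 named members the change differed between the lines by the interaction term of edgeR (adjusted p under 0.05 over all genes), given here as the A375 change minus the CHL1 change on the log2 scale. The contrasts that chose the chromosome enter this term, so the values are a description. By the same term 11.9% of all tested genes were lower and 11.7% higher, beside 50.5% and 4.59% of the members of both lines. Many named members were picked for extreme changes in a line, so the count is partly built in. In 37 the value was below 0 and in 3 above it, namely EFNB2 (0.58), PCDH17 (1.39) and TBC1D4 (0.70).

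Libraries did not overlap in either line and the direction was lower in A375 and higher in CHL1 for CDADC1 (-0.94), DZIP1 (-0.68), GJA3 (-1.15), ITM2B (-0.50), STARD13 (-1.06) and UBL3 (-0.73), and the reverse for EFNB2 and TBC1D4. The CHL1 changes of CDADC1 and STARD13 did not pass the test within that line. Among all tested genes in CHL1, 17.4% were higher without overlap. Below -0.7 were also DOCK9 (-1.58), IRS2 (-0.80) and SLC25A30 (-0.75). MBNL2 had -0.78, which became -0.51 without A375 parental replicate 2.

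Between -0.7 and -0.5 also lay CARS2 (-0.56), ESD (-0.52), IPO5 (-0.51), POMP (-0.62), SPART (-0.58), TPT1 (-0.54) and TSC22D1 (-0.57). Above -0.5 lay CHAMP1 (-0.35), COG3 (-0.41), CUL4A (-0.31), EBPL (-0.42), GTF3A (-0.40), MICU2 (-0.41), MPHOSPH8 (-0.37), MZT1 (-0.41), PROSER1 (-0.35), STK24 (-0.32), SUCLA2 (-0.44) and TM9SF2 (-0.44).

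The call was lost when single libraries were left out for 8 members. For ATP11A (-0.39) and KPNA3 (-0.31) that library was A375 resistant replicate 3, where they became -0.32 and -0.24, and for ZC3H13 (-0.35) it was A375 resistant replicate 2 or 3, with -0.30 in both cases. HMGB1 (-0.28) lost it without A375 parental replicate 2 (-0.20), A375 resistant replicate 3 (-0.23), CHL1 parental replicate 3 (-0.22) or CHL1 resistant replicate 1 (-0.23). TFDP1 (-0.24) lost it without A375 parental replicate 2 (-0.19), A375 resistant replicate 2 (-0.18) or 3 (-0.20), or CHL1 parental replicate 1 (-0.24) or 3 (-0.22). CDC16 (-0.21), KLF5 (-0.36) and RCBTB1 (-0.27) lost it without most of the libraries, and KLF5 and RCBTB1 also with library totals in place of TMM factors.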

How the results depend on the processing

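The medians over members of both resistance contrasts and of their difference stayed below 0, with more lower than higher members, under every alternative run. Leaving out each library gave A375 medians from -0.44 to -0.39 (-0.42 with all libraries), 122 to 141 lower members (146) and 5 to 9 higher ones (8), with 4 higher among members of at least 10 CPM. In CHL1 it gave medians from -0.12 to -0.09 (-0.11), 32 to 49 lower members (45) and 9 to 11 higher ones (13). For the difference between the lines it gave medians from -0.34 to -0.27 (-0.33), 74 to 97 lower (99) and 8 to 11 higher members (9). For the parental lines, whose lower and higher counts were about equal, it gave medians from -0.01 to 0.03 (0.01). Library totals in place of TMM factors moved the parental median to 0.11, with 73 lower and 96 higher members in place of 84 and 83. The cause was not tested. The share of all genes called under each of these settings is not given, so the shifts in these counts are not read as results about the members.

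Replicate numbers are shared between groups. The deviations of same-numbered libraries correlated by 0.263, 0.274 and -0.007 in A375 and by 0.146, 0.007 and 0.033 in CHL1. Those of differently numbered libraries ran from -0.311 to 0.0712 in A375 and from -0.0962 to 0.0700 in CHL1. In A375 the same-numbered pairs of replicates 1 and 2 lay above all of these. The labels do not say whether same-numbered libraries were handled together, and the main fits did not pair them. With the replicate block 158 A375 members were lower and 10 higher, 59 and 13 in CHL1, 113 and 11 for the difference between the lines, and 82 and 84 for the parental lines. The share of all genes called with the block is not given, so these counts are not read as a result about the members.

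Among the named genes, the calls of EFNB2, TBC1D4 and SLITRK1 in A375 were lost without single libraries, with values down to 0.24, 0.26 and 0.31. In A375 those of GJA3, ATP8A2 and SPRYD7 were lost under 5, 5 and 3 alternatives and those of HMGB1 and ZMYM2 under 1 each. In CHL1 those of MICU2 and GTF3A were lost under 8 and 2, and in the parental comparison those of GJA3 under 6 and of MPHOSPH8, MZT1 and PROSER1 under 3 each. The depth of the libraries limits members near 1 CPM, and with 3 libraries a group, which may be technical repeats, small differences such as those in CHL1 stand close to the threshold.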
